A study of Arabidopsis thaliana with 64 samples.

Results

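The comparison described here set the 2 GR-ENAP1 lines with the most ENAP1 transcript against the 2 lines with the least, in 16 of the 64 libraries of the series. The 4 lines were ranked by the mean level of ENAP1 (AT3G11100) over their mock libraries, as CPM, the counts of a gene per 1000000 counts of the library. Lines 5 and 1 came out as the high lines, with 8 libraries, and lines 4 and 2 as the low lines, with 8 libraries. The groups were thus chosen by the level of ENAP1 in mock libraries, which is given as a description.

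Each library was made from pooled whole *Arabidopsis thaliana* seedlings of 1 plate, grown in the dark for 5 days and then kept on 10 µM dexamethasone (Dex) or on mock plates for 24 h. Each of the 4 lines, an independent insertion of p35S::GR-ENAP1 taken as T3 seed, had 2 Dex and 2 mock libraries. All 16 libraries carry the transgene, whose vector also holds the seed marker pOLE1:OLE1-RFP, and libraries of plants with no GR-TF were not part of the set. The 4 libraries of a line share 1 insertion, so tests over libraries measure the spread between plates and not between insertions.

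ENAP1 (EIN2 NUCLEAR ASSOCIATED PROTEIN 1) is a trihelix transcription factor that binds the nuclear part of EIN2, the central membrane protein of ethylene signalling, and has been linked to histone acetylation in the ethylene response. The glucocorticoid receptor (GR) part holds the fusion in the cytosol until Dex lets it enter the nucleus. The transcript counted here is the sum of the resident gene and the transgene, since both give the same coding sequence. A constitutive promoter drives the fusion, so the transcript does not need Dex.

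Total counts ran from 2059928 to 7571782 per library. Markers of etiolated seedlings were present, with the dark-grown chloroplast gene PORA between 84.3 and 1469 CPM and the root endodermis gene CASP1 between 36.6 and 94.6 CPM, and the root hair gene SHV2 was at 0 in 4 libraries. A pair of libraries stood apart. Line 1 mock replicate 1 had a median Pearson correlation of 0.734 with the other GR-ENAP1 libraries (log2 values of 14890 genes) and line 2 Dex replicate 1 had 0.862, against 0.949 to 0.978 for the other 14, while their correlation with each other was 0.950. The summed level of 12 genes of dark starvation was 3235 and 6176 CPM in these libraries and 12990 to 20850 CPM in the 14 others. The root list (13 genes) summed to 4207 and 3641 CPM in them and to 1525 to 3027 CPM in the others. One of these divergent libraries is in each group, and results are given with all 16 libraries and with the other 14, a choice made after the data were seen.

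ENAP1 (chromosome 3, 3476187 to 3477900 in TAIR10, reverse strand) was above the other GR-TF lines in every library. Line 5 had 517 and 537 CPM with mock and 283 and 564 CPM with Dex. Line 1 had 162 and 479 CPM with mock and 471 and 232 CPM with Dex. Line 4 was even, with 207 and 218 CPM with mock and 243 and 274 CPM with Dex. Line 2 had 139 and 179 CPM with mock and 127 and 153 CPM with Dex. All 16 were above the highest of the 48 libraries of the other GR-TFs, which ran from 25.4 to 110.2 CPM with a median of 89.5 CPM. The order of the mock means was line 5 (527 CPM ± 14.4, SD, n = 2), line 1 (321 CPM ± 224, SD, n = 2), line 4 (212 CPM ± 8.08, SD, n = 2) and line 2 (159 CPM ± 28.1, SD, n = 2).

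The spread within line 1 (2.95 times between its lowest and highest library, 162 to 479 CPM) was wider than the distance between the means of the high (406 CPM) and low lines (193 CPM), and its lowest library lay below all 4 libraries of line 4. The divergent library of line 1, at 162 CPM, was the lowest of the high lines, and the divergent library of line 2, at 127 CPM, was the lowest of all 16. Ranking by all libraries, by Dex libraries or by TMM-scaled CPM gave the same pairs. Without line 1 mock replicate 2 the rule would have put line 4 (212 CPM) above line 1 (162 CPM). The Dex libraries, which the rule did not use, averaged 388 CPM ± 156 (SD, n = 4) in the high lines and 199 CPM ± 70.6 (SD, n = 4) in the low lines. This difference of 188 CPM did not pass a two-sided exact permutation test (p = 0.114, where 0.0286 is the smallest p that 4 against 4 allows). Without line 1 Dex replicate 2, the lowest Dex library of the high lines, it was 240 CPM (exact permutation test, p = 0.0286). With any other Dex library left out, the same test gave p from 0.0857 to 0.229.

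**Figure D1:**
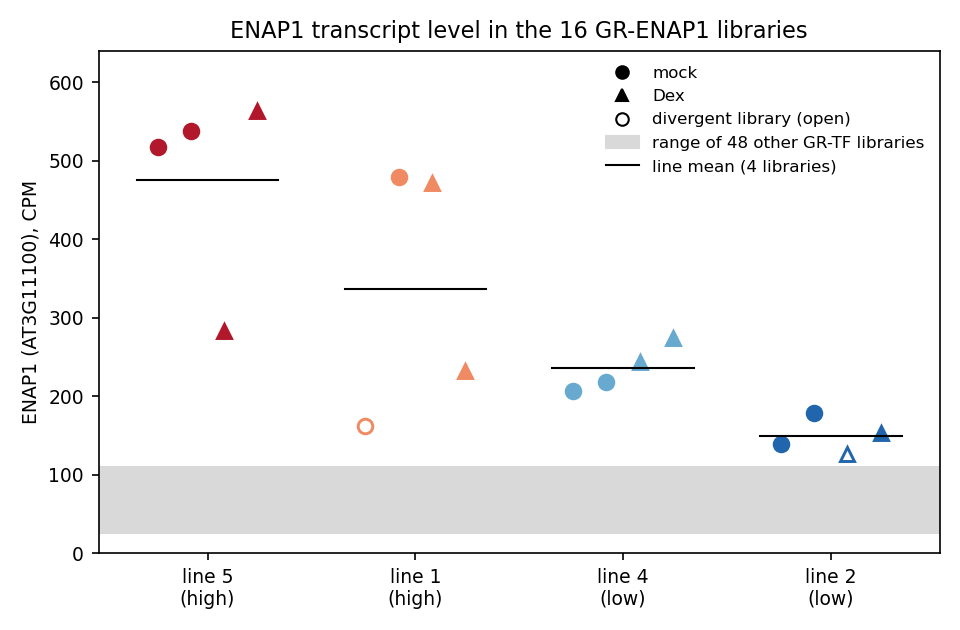
ENAP1 level in CPM (linear axis from 0) for each of the 16 libraries by line, with circles for mock, triangles for Dex, open symbols for the divergent libraries, black bars for line means over 4 libraries, and a grey band for the range of the 48 libraries of other GR-TFs (25.4 to 110.2 CPM). Lines 5 and 1 hold the highest values, but 1 library of line 1 lies at 162 CPM, below all libraries of line 4.

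ENAP1 also varied with the overall state of a library. Likeness to the divergent library of line 1 was measured as the Pearson correlation with it. In each of the 4 lines, the library with the highest likeness had the lowest ENAP1 level of its line. In line 5 that was Dex replicate 1, at a correlation of 0.780 and 283 CPM, and in line 4 mock replicate 1, at 0.800 and 207 CPM. Over the 14 libraries, likeness ran from 0.689 to 0.780 (median 0.720) in the high lines and from 0.704 to 0.823 (median 0.773) in the low lines, so that these ranges overlap with the low lines shifted toward the divergent state. Its part in the differences between the lines was tested only as a covariate.

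**Figure D2:**
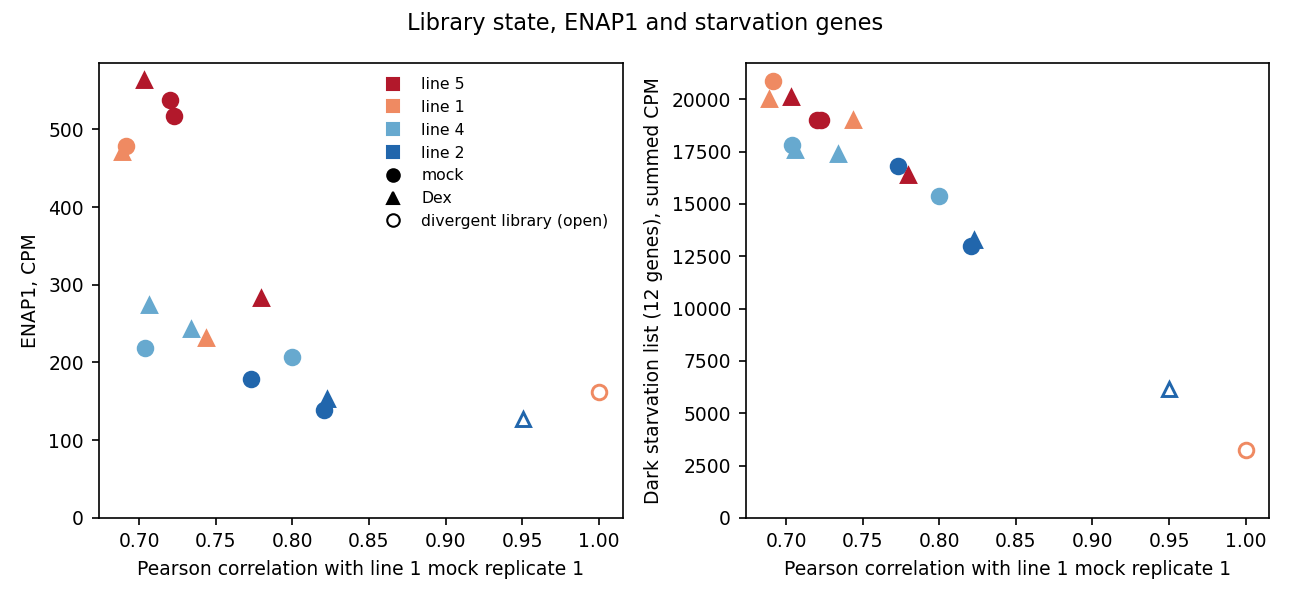
ENAP1 level (left, CPM) and summed level of the 12 dark starvation genes (right, CPM) against the Pearson correlation of each library with line 1 mock replicate 1, whose own value is 1; colours are lines, circles mock, triangles Dex and open symbols the divergent libraries. In each line the library nearest to the divergent state has the lowest value of its line in both panels, and line 2 sits nearer to it (0.773 to 0.823 without its divergent library) than line 1 (0.6891 to 0.7435 without its own).

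The first question was which genes differ between high and low lines with treatment as a covariate. Over all 16 libraries, 1 of 18505 tested genes (0.0054%) was lower in the high lines and 0 (0%) were higher in edgeR (quasi-likelihood test, Benjamini-Hochberg adjusted p under 0.05). At an unadjusted p under 0.05 there were 837 genes, or 4.52%. DESeq2 called 7 genes higher (0.0378%) and 27 lower (0.146%). Without the divergent libraries, 107 of 18501 genes (0.578%) were higher and 109 (0.589%) lower in edgeR. The square root of the common dispersion was 0.311 with 16 libraries and 0.152 with 14.

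The calls of the 14 libraries rest on libraries, not on lines. With counts summed per line, 0 genes passed in edgeR over 16 or 14 libraries (149 and 1604 at an unadjusted p under 0.05), and with line as a random block limma voom called 2 genes over 14 libraries. In the mock libraries alone and in the Dex libraries alone 0 genes passed over 14 libraries, with 2682 and 1098 at an unadjusted p under 0.05. Leaving out 1 library left 2 calls without line 5 mock replicate 2, 7 without line 2 Dex replicate 2 and 23 without line 5 Dex replicate 2. It left 50 and 51 without mock replicate 1 of line 4 and of line 2, 75 and 76 without Dex replicate 1 and mock replicate 2 of line 1, and 127 and 130 without line 2 mock replicate 2 and line 5 mock replicate 1. Calls rose to 345 without line 1 Dex replicate 2, 348 and 407 without Dex replicate 2 and mock replicate 2 of line 4, and 377 without line 5 Dex replicate 1. Without a whole line there were 22 calls (line 5), 9 (line 2), 274 (line 1) and 2352 (line 4). With likeness as a covariate 130 genes passed, and 68 of them were among the 216.

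In line means over the 14 libraries, both high lines lay above both low lines for 104 of the 107 genes called higher, and below them for all 109 genes called lower. The genes were called on the same libraries, so this order was largely set in advance. Over all 18505 tested genes, both high lines lay above both low lines for 2212 and below them for 5037. Of the 107 genes, 94 (87.9%) were lower in the divergent library of line 1 than the median of the 14 libraries, against 41.7% of all tested genes. Of the 109 genes called lower, 83 (76.2%) were higher in that library, against 58.3% of all tested genes.

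IAA6 (AT1G52830; chromosome 1, 19672476 to 19673652), an Aux/IAA repressor induced by auxin, was the gene called over 16 libraries. Line 5 had 7.41 and 3.88 CPM with mock and 5.89 and 3.904 CPM with Dex, and line 1 had 5.02 and 5.25 CPM with mock and 3.88 and 4.32 CPM with Dex. Line 4 had 9.29 and 11.9 CPM with mock and 11.2 and 8.74 CPM with Dex, and line 2 had 13.9 and 9.19 CPM with mock and 16.9 and 13.9 CPM with Dex. All 8 libraries of the high lines lay below all 8 of the low lines. The log2 fold change (high minus low) was -1.22 (standard error 0.17, adjusted p = 0.0400 in edgeR) over 16 libraries and -1.13 over 14 (adjusted p = 0.0147). It passed in 17 of 35 other settings and was negative in each of them. The high lines do not leave the range of the other GR-TFs, whose 48 libraries ran from 0.9635 to 25.05 CPM.

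IAA19 (AT3G15540; chromosome 3, 5264001 to 5265695), another Aux/IAA repressor of hypocotyl growth, had the same order. The high lines ran from 16.7 to 39.6 CPM (median 31.2) and the low lines from 40.5 to 80.9 CPM (median 57.7), with no overlap over 16 libraries. Its log2 fold change was -0.93 over 16 libraries (edgeR adjusted p = 0.118) and -0.96 over 14 (standard error 0.17, adjusted p = 0.0214). AXR3, a further Aux/IAA gene picked after its values were seen, was at -0.54 over 14 libraries (adjusted p = 0.0474).

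The stretch before each gene is shown because these genes moved together and the auxin response element TGTCTC, the G-box CACGTG and the E-box variant CACATG are short enough to search. The letters are the 250 bases before the annotated gene start in the NCBI reference assembly TAIR10.1, read 5′ to 3′ on the strand of the gene, with matches on either strand in capitals (IAA6 at chr1:19673653-19673902, IAA19 at chr3:5263751-5264000 and EXPA5 at chr3:11013452-11013701).
IAA6: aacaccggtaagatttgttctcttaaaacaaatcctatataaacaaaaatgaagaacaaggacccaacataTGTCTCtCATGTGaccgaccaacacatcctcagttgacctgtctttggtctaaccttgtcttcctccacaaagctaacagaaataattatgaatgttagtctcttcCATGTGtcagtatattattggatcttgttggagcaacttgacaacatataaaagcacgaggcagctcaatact
IAA19: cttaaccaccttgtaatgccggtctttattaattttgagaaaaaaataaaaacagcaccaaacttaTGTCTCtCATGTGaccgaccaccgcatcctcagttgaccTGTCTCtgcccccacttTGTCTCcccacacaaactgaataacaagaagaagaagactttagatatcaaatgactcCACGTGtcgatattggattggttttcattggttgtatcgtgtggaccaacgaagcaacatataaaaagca
EXPA5: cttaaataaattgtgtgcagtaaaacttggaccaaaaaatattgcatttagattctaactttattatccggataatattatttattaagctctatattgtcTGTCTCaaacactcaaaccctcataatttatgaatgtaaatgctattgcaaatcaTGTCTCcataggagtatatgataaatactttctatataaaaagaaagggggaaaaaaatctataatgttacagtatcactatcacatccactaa

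IAA6 held 1 TGTCTC and 2 CACATG, IAA19 held 3 TGTCTC, 1 CACATG and 1 CACGTG, and EXPA5 held 2 TGTCTC. The longest run that IAA6 and IAA19 share is 23 bases, taTGTCTCtCATGTGaccgacca, which begins 181 bases before the start of IAA6 and 186 bases before that of IAA19 and holds a TGTCTC and a CACATG in reverse. Among 37885 promoters of the same length, 10.9% held TGTCTC, 5.39% CACGTG and 10.9% CACATG. Of the 109 genes called lower over 14 libraries, 13 (11.9%) held TGTCTC and 24 (22.0%) CACATG. Of the 107 genes called higher, 7 (6.54%) held TGTCTC and 13 (12.1%) CACATG. A match is a description of the letters and not a binding site.

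The next 7 genes, of the growing cell wall and of auxin, were chosen after their values were seen and stand for no list. EXPA5, an expansin, ran from 4.09 to 8.64 CPM (median 5.90) in the high lines and from 7.77 to 14.8 CPM (median 12.5) in the low lines, and 2 libraries of line 1 overlapped with 1 of line 4. Its log2 fold change was -0.93 over 16 libraries (edgeR adjusted p = 0.130) and -0.97 over 14 (adjusted p = 0.0214). XTH17 and XTH4, which cut and rejoin xyloglucan, were at -1.19 (adjusted p = 0.0305) and -0.42 (adjusted p = 0.0414) over 14 libraries, and XTH4 did not overlap over 16 libraries (440 to 658 CPM against 662 to 832.5 CPM). EXPA8 was at -0.49, the auxin-responsive SAUR gene AT3G53250 at -1.24, the auxin conjugate hydrolase ILL6 at -0.48 and the ROP effector ICR1 at -0.41, each called over 14 libraries. Over 16 libraries none of these 7 genes passed (adjusted p from 0.130 to 0.621). All 7 were lower in the high lines, but the auxin genes IAGLU and NIT2 were higher over 14 libraries. Their log2 fold changes were 0.50 (edgeR adjusted p = 0.021) and 0.61 (edgeR adjusted p = 0.0499).

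Of 16 fasciclin-like arabinogalactan proteins, cell surface proteins found in growing and thickening walls, 4 were called lower (25.0%, against 0.589% of all tested genes) and 0 higher over 14 libraries, with a median log2 fold change of -0.41 against -0.01 over all tested genes. Over 16 libraries 0 were called and the median was -0.25. FLA9 ran from 175 to 355 CPM in the high lines and from 329 to 444.5 CPM in the low lines, with a log2 fold change of -0.57 over 14 libraries. FLA13 was at -0.88 and FLA1 at -1.02. This family was picked after its values were seen.

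Of the auxin response list (12 genes, 11 tested), 1 gene, IAA19, was called lower over 14 libraries (9.09%, against 0.589% of all tested genes), 0 were higher and 0 were called over 16, and 9 of the 11 had a negative log2 fold change, with a median of -0.19 against -0.01 over all tested genes. Its summed level was 615 to 756 CPM in the high lines and 769 to 923 CPM in the low lines over 14 libraries, without overlap. In the divergent libraries it was 513 and 620 CPM, below every other library of their groups. In line 2 Dex replicate 1, IAA6 (16.9 CPM) was above and IAA19 (71.2 CPM) within the range of the other libraries of line 2.

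**Figure D3:**
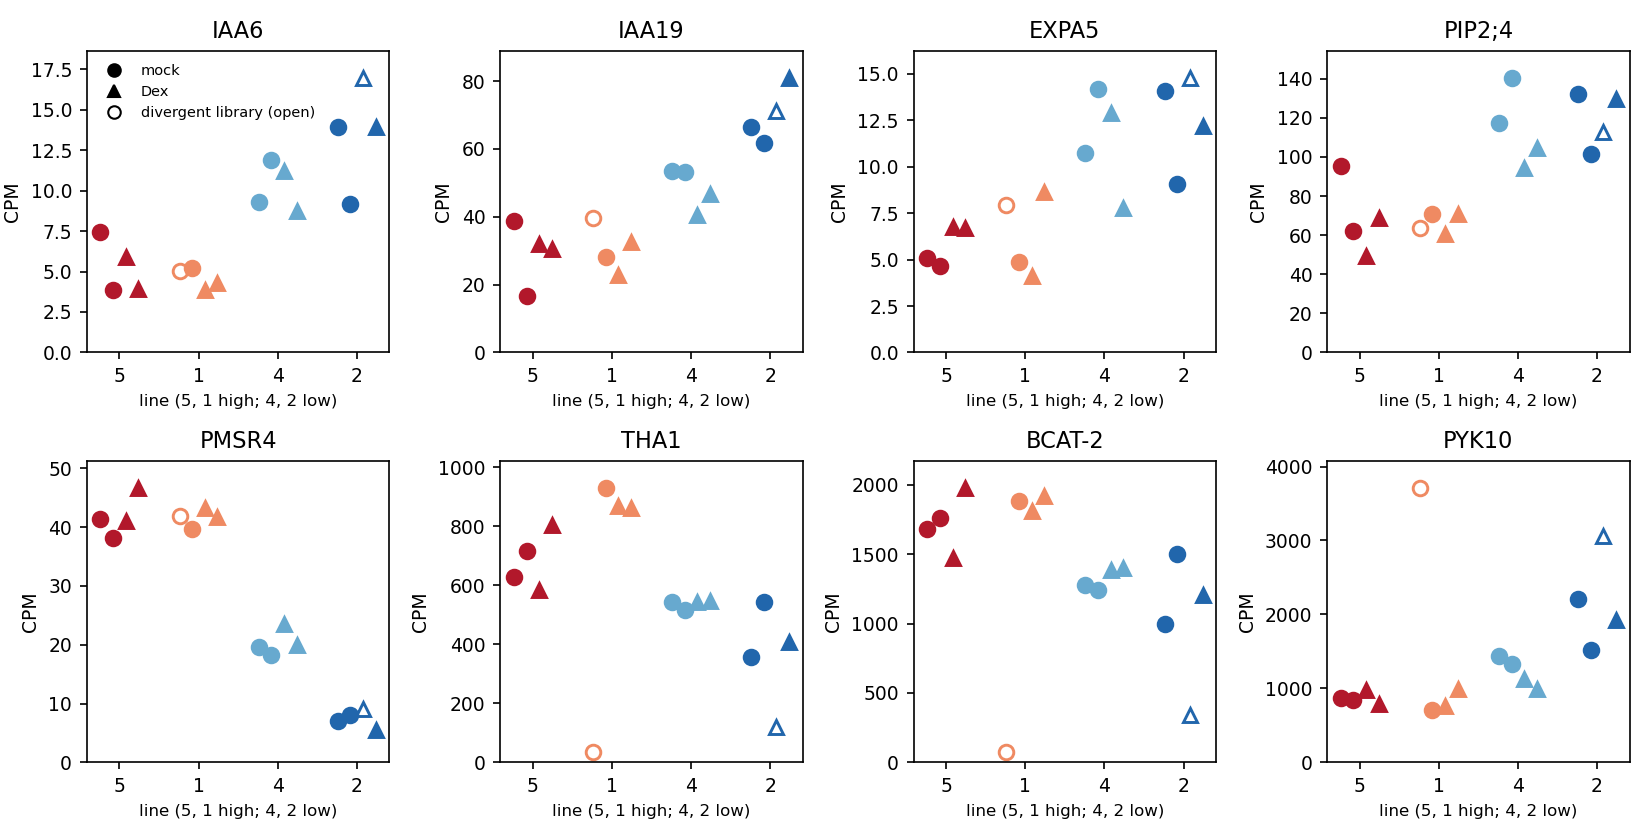
CPM (linear axes from 0) of 8 genes in the 16 libraries by line, with lines 5 and 1 high and lines 4 and 2 low, circles for mock, triangles for Dex and open symbols for the divergent libraries. IAA6, IAA19 and PMSR4 do not overlap between the groups over 16 libraries, THA1 and BCAT-2 fall in the divergent libraries (THA1 to 34.9 and 121 CPM) and PYK10 rises there (3709 and 3065 CPM).

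Of the dark starvation list, 1 of 12 genes (8.33%), BCAT-2, was called higher over 14 libraries, against 0.578% of all tested genes, and 0 over 16. THA1, threonine aldolase, is not in this list. It ran over 14 libraries from 583 to 929 CPM (median 804) in the high lines and from 358 to 548 CPM (median 544) in the low lines, and in the divergent libraries it was 34.9 and 121 CPM. Its log2 fold change was 0.69 over 14 libraries (standard error 0.14, edgeR adjusted p = 0.0331) and 0.65 over 16 (adjusted p = 1.0), and with likeness as a covariate it did not pass over 14 (adjusted p = 0.0663). BCAT-2, a branched-chain aminotransferase of the dark starvation list, was at 0.52 (adjusted p = 0.0414) over 14 libraries, with 1475 to 1977 CPM against 996 to 1500.0 CPM, and at 74.8 and 343 CPM in the divergent libraries. BCAT-1, which starts the breakdown of branched-chain amino acids in mitochondria, was at 0.74 (adjusted p = 0.0210). All 12 starvation genes had a positive log2 fold change over 14 libraries, with a median of 0.27. The summed level of the list overlapped between the groups, at 16380 to 20850 CPM against 12990 to 17790 CPM over 14 libraries.

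The senescence regulators NAP and NAC6 and the chlorophyll breakdown genes ACD1 and PPH, chosen after their values were seen, had log2 fold changes of 0.45, 0.53, 0.43 and 0.38 over 14 libraries and were called there. NAP ran from 72.2 to 107.5 CPM in the high lines and from 64.2 to 75.5 CPM in the low lines over 14 libraries, and was 9.905 and 32.8 CPM in the divergent libraries. AT5G14470, a GHMP kinase family gene, had the smallest adjusted p over 14 libraries, shared with AT5G43450 (log2 fold change 0.75, adjusted p = 0.00570), at 81.5 to 101.8 CPM against 41.6 to 64.05 CPM. In the divergent libraries it was 5.94 and 10.6 CPM. AT5G43450, a 2-oxoglutarate-dependent oxygenase, had 0.85 (adjusted p = 0.00570) and stood at 3.57 and 6.38 CPM in the divergent libraries. All 4 of these regulator and breakdown genes, AT5G14470 and AT5G43450 were lower in both divergent libraries than in any other library of the same group. With likeness as a covariate, NAC6, ACD1, AT5G14470 and AT5G43450 still passed over 14 libraries (edgeR adjusted p from 0.00299 to 0.0405), and NAP (adjusted p = 0.0757) and PPH (adjusted p = 0.152) did not.

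Further genes called higher over 14 libraries without overlap were AT2G41190, an amino acid transporter (log2 fold change 0.61), AT5G47590, a small heat shock protein gene (0.95), and AT4G19520, a TIR-NBS-LRR resistance gene (1.27). AT1G67865 (1.36), AT3G54363 (0.73, in a stretch of chromosome 3 that was higher in line 5) and AT3G06355, a noncoding RNA (0.69), have no named role in the annotation. G6PD4, a glucose-6-phosphate dehydrogenase of the pentose phosphate pathway, was at 0.40 (adjusted p = 0.0413). CSY2, a peroxisomal citrate synthase listed with the TCA cycle genes, was at 0.28 (adjusted p = 0.0483). G6PD4 was 1 of 2 genes higher without overlap over all 16 libraries (0.0107% of 18668 genes at 1 CPM or more), with 37.5 to 46.6 CPM against 27.3 to 36.7 CPM, and 18 genes (0.0964%) were lower without overlap. Over 14 libraries 32 genes (0.171%) were higher and 95 (0.509%) lower without overlap.

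Of the 12 root list genes tested over 16 libraries, 2 were called lower over 14 (16.7%, against 0.589% of all tested genes). Over 14 libraries 0 were called higher, and over 16 libraries 0 were called. PYK10, the myrosinase of root endoplasmic reticulum bodies, ran from 711 to 994 CPM (median 840) in the high lines and from 998 to 2211 CPM (median 1437) in the low lines over 14 libraries, with a log2 fold change of -0.75 (edgeR adjusted p = 0.0275). In the divergent libraries it was 3709 and 3065 CPM. PIP2;4, a root aquaporin, ran from 49.3 to 95.5 CPM in the high lines and from 94.4 to 140.3 CPM in the low lines, where 1 library of line 5 overlapped with 1 of line 4, with a log2 fold change of -0.69 (adjusted p = 0.0157), and its divergent libraries (63.7 and 113 CPM) were like the others of their groups. The median log2 fold change of the root list was -0.55 over 14 libraries, with 2 genes above 0 and 8 below. Over 16 libraries it was -0.03, with 5 genes above 0 and 7 below. Fewer root genes were tested over 14 libraries, so these medians are of different sets of genes. A lower share of root in the pooled seedlings and less RNA per root cell cannot be told apart in these libraries.

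Other genes lower over 14 libraries without overlap were the amino acid exporter family gene UMAMIT4 (-0.87), the kinase genes PERK15 (-1.15) and AT4G32000 (-0.93), the phospholipase C gene AT3G55940 (-0.89), the lipase gene AT2G42990 (-1.45), the dirigent gene AT4G11190 (-1.24) and AT1G16630 (-1.02). AT4G11190 ran from 0.375 to 4.02 CPM in the high lines and from 4.15 to 7.47 CPM in the low lines over all 16 libraries. Of 340 genes of ribosomal proteins, a set chosen after its values were seen, 13 were called lower (3.82%, against 0.589% of all tested genes) and 0 higher over 14 libraries and 0 over 16. At an unadjusted p under 0.05, 50.9% of them were lower over 14 libraries, against 9.68% of all tested genes, and the median log2 fold change was -0.29 over 14 and -0.07 over 16 libraries.

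PMSR4 (AT4G25130; chromosome 4, 12898514 to 12900090), a methionine sulfoxide reductase that repairs oxidised protein in plastids, kept each line apart from the low lines. Line 1 had 39.7 to 43.3 CPM and line 5 had 38.1 to 46.6 CPM. Line 4 had 18.3 to 23.45 CPM and line 2 had 5.565 to 9.11 CPM. The high lines did not overlap with the low lines, and lines 4 and 2 did not overlap with each other. Its divergent libraries (41.9 and 9.11 CPM) stayed with their lines. The log2 fold change was 1.65 over 16 libraries (standard error 0.28, edgeR adjusted p = 0.118) and 1.60 over 14 (adjusted p = 0.0257), and within the low pair line 4 was above line 2 by 1.54 (adjusted p = 0.00910). The 12 lines of the other GR-TFs had means from 5.77 to 44.7 CPM, so the lines without GR-ENAP1 covered the same range.

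PMSR4 lies head to head with OLEO1 (AT4G25140), the oleosin whose promoter and coding region are in the seed marker of the vector, with 339 bases between them. OLEO1 ran from 1.08 to 7.13 CPM in the high lines and from 1.11 to 3.57 CPM in the low lines, at a log2 fold change of 0.65 (edgeR adjusted p = 1.0). SRS2, the gene on the other side of PMSR4, was at -0.22 (adjusted p = 1.0). The last 300 of the bases between the genes (chr4:12900130-12900429, TAIR10.1, forward strand, so that OLEO1 starts after the last letter) are shown because both genes start from them. The seed RY motif CATGCA and the G-box CACGTG are in capitals on either strand.
Between PMSR4 and OLEO1: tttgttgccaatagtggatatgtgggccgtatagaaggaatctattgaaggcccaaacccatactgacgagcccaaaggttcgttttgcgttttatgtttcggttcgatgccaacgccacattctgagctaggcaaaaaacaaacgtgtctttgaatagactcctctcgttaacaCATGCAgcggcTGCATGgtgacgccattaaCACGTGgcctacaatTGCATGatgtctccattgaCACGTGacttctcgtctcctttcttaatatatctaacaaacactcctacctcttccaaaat

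The stretch held 3 CATGCA and 2 CACGTG, which 10.6% and 5.98% of the 300-base promoters held at least once. Whether reads of the marker cassette fall on PMSR4 was not measured. Among 12 tested genes of seed storage and oleosins, SESA3, a seed storage albumin, was called higher over 14 libraries (log2 fold change 2.01, edgeR adjusted p = 0.0157), at 1.12 to 6.23 CPM against 0.565 to 1.42 CPM, and 0 were lower. The median of the list was -0.19, and over all tested genes 0.578% were called higher and 0.589% lower over 14 libraries.

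A stretch of chromosome 3 was higher in line 5. Genes with a mean of at least 5 CPM were set against the median of the 48 libraries of other GR-TFs and the median was taken in windows of 200000 bases. In line 5, 12 windows in a row (18200001 to 20600000, or 2.4 Mb, with 825 annotated and 397 measured genes) lay above those of all other GR-ENAP1 lines by more than 0.1 on the log2 scale, with the divergent libraries left aside. The median difference over the stretch was 0.382 and 0.359 in the mock libraries of line 5 and 0.41 and 0.395 in its Dex libraries. In the other 12 GR-ENAP1 libraries it was -0.015 to 0.032, and in the 48 libraries of other GR-TFs -0.035 to 0.032, without overlap with line 5. Single windows ran from 0.28 to 0.544 in line 5, and in the divergent library of line 1 they spread from -0.723 to 0.471. The stretch was found after the values were seen, and DNA copy number was not measured.

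Within the high pair, 486 of the 517 tested genes of the stretch were higher in line 5 than in line 1 over 14 libraries, with a median log2 difference of 0.43 (1.345 times) against 0.01 over all tested genes. Since the stretch was defined by windows in which line 5 lay above line 1 in these libraries, this direction was largely set in advance. The stretch holds 2.79% of the tested genes, 31 of the 107 genes called higher in the high lines (29.0%) and 1 of the 109 called lower. These 31 include ACX4, an acyl-CoA oxidase of peroxisomal fatty acid breakdown (log2 fold change 0.49), AMP1, a carboxypeptidase-like protein that limits the shoot meristem (0.63), HMGB1, a chromatin protein (0.54), and TMT3, a vacuolar sugar transporter (1.58). In line means, line 1 was above both low lines for 28 of the 32 called genes of the stretch, which were called on these same libraries. Without the stretch, 76 genes were higher and 108 lower. ENAP1 itself lies outside it.

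**Figure D4:**
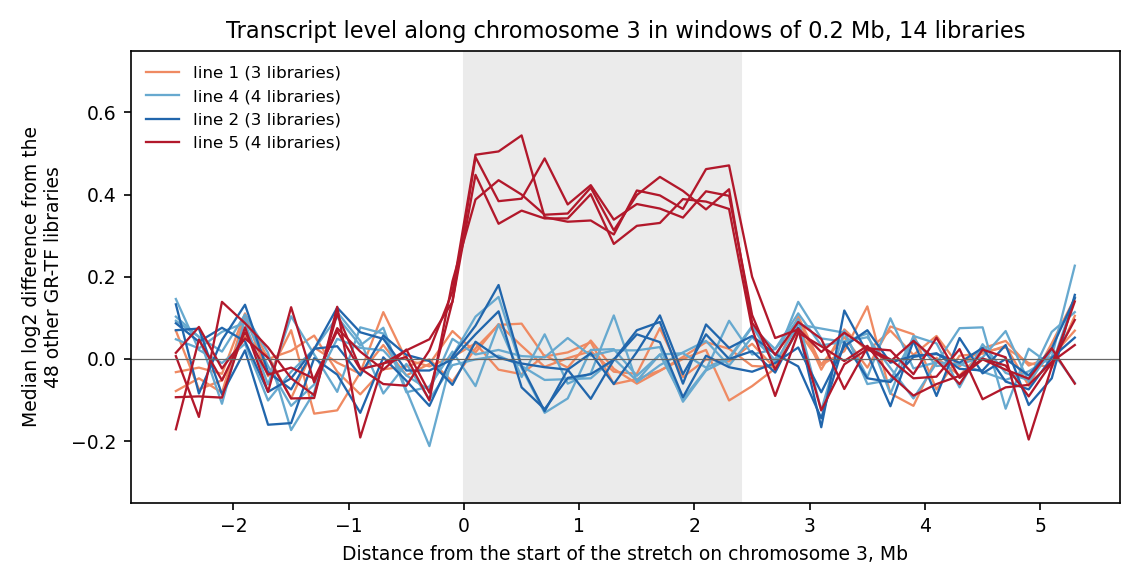
Median log2 difference from the 48 libraries of other GR-TFs in windows of 0.2 Mb along chromosome 3, against distance in Mb from the start of the stretch (grey), for the 14 libraries without the divergent ones; each line is 1 library. The 4 libraries of line 5 rise at the start, stay between 0.28 and 0.544 for 2.4 Mb and return to the level of the other 10 libraries.

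How far single lines differ was asked within each pair, whose lines also differ in ENAP1 (mock means of 527 and 321 CPM, and of 212 and 159 CPM). Line 5 minus line 1 gave 14 genes higher (0.0757%) and 1 lower (0.0054%) over 16 libraries, and 125 higher (0.676%) and 49 lower (0.265%) over 14. Of the 125 genes, 41 were in the stretch. Line 4 minus line 2 gave 1 higher (0.0054%) and 1 lower (0.0054%) over 16 libraries, and 12 higher (0.0649%) and 17 lower (0.0919%) over 14. These within-pair calls came from a fit with a mean for each line and treatment. In that fit the pairs differed for 568 genes over 14 libraries, beside 174 genes between lines 5 and 1. Over 16 libraries the order was reversed, with 1 gene between the pairs and 15 between lines 5 and 1. The 216 calls between the pairs came from the fit with treatment as a covariate, and a pair holds more libraries than a line.

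The gene lower in line 5 than line 1 over 16 libraries was INVH (AT3G05820), an invertase that splits sucrose. Line 1 had 16.1 and 19.1 CPM with mock and 31.5 and 18.9 CPM with Dex. Line 5 had 0.217 to 1.06 CPM, line 4 had 0 to 0.415 CPM and line 2 had 0.565 to 3.28 CPM. Line 1 was above every other GR-ENAP1 library, its divergent library included, and the difference was -5.30 on the log2 scale (edgeR adjusted p = 0.00391). The 48 libraries of other GR-TFs ran from 0 to 11.2 CPM.

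Dex was asked about in each pair and between pairs. In the high lines 0 of 18505 genes passed in edgeR in either direction (0%), with 930 at an unadjusted p under 0.05, and DESeq2 called 0. In the low lines 0 passed (0%), with 270 at an unadjusted p under 0.05, and DESeq2 called 0. The Dex effect differed between the pairs for 0 genes (0%), with 1078 at an unadjusted p under 0.05 and 0 in DESeq2. Without the divergent libraries each count was 0, with 475, 441 and 458 genes at an unadjusted p under 0.05. A dependence of the difference between the pairs on Dex was not detectable with these libraries. These fits had a mean for each pair and treatment and no term for line, so differences between lines entered the error. Counts of 0 thus do not show that Dex had no effect.

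Since ENAP1 acts with EIN2, the ethylene genes were read as lists chosen with earlier results of these data known. Of the biosynthesis genes (15 genes, 13 tested), 1 was called lower over 14 libraries (0.589% over all tested genes) and 0 over 16. This was ACS5, an ACC synthase, at 0.423 to 1.29 CPM in the high lines and 1.23 to 3.11 CPM in the low lines over 14 libraries, with a log2 fold change of -1.51 (edgeR adjusted p = 0.0414). The groups overlapped at these low levels. ETO1, which marks ACS5 for breakdown and lies in the stretch of chromosome 3, was at 0.38 (adjusted p = 0.0819).

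Of 19 receptor and signalling genes, 1 was called lower (0.589% over all tested genes) and 0 higher (0.578%) over 14 libraries. This was ARGOS, a negative regulator of ethylene sensitivity that auxin also induces, at 8.89 to 13.4 CPM against 9.71 to 22.1 CPM (log2 fold change -0.69, edgeR adjusted p = 0.0414). EIN2 was at 0.00 over 16 libraries and 0.02 over 14, with medians of 206 and 192.5 CPM in the high and low lines over 14. EIN3, the transcription factor that EIN2 stabilises, was at 0.29 (adjusted p = 0.123), and the receptor gene ETR1 was at 0.11. Of 20 response genes 13 could be tested and 0 were called, and EBP, an ethylene response factor, ran from 293 to 888 CPM in the high lines and 371 to 772 CPM in the low lines over 14 libraries. The medians of the 3 lists over 14 libraries were -0.14, 0.06 and -0.04.

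Of the 7 trihelix relatives of ENAP1, 24 tested genes of histone acetylation and 16 of RNA silencing, 0 were called over 14 or 16 libraries, with medians of 0.16, 0.11 and 0.10 over 14 libraries. The silencing list holds genes of small RNA pathways and DNA methylation, among them RDR6 and SGS3, which act in transgene silencing. Its summed level was 531 to 608 CPM in the high lines and 531 to 633 CPM in the low lines. Light harvesting genes (21 tested) had 0 calls and a median of 0.03, and their summed level spread widely within both groups (15550 to 34310 CPM and 16410 to 27500 CPM over 14 libraries). Heat shock, defence, hypoxia, cold, jasmonate, light response and shoot epidermis lists had 0 calls over 16 and over 14 libraries.

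**Figure D5:**
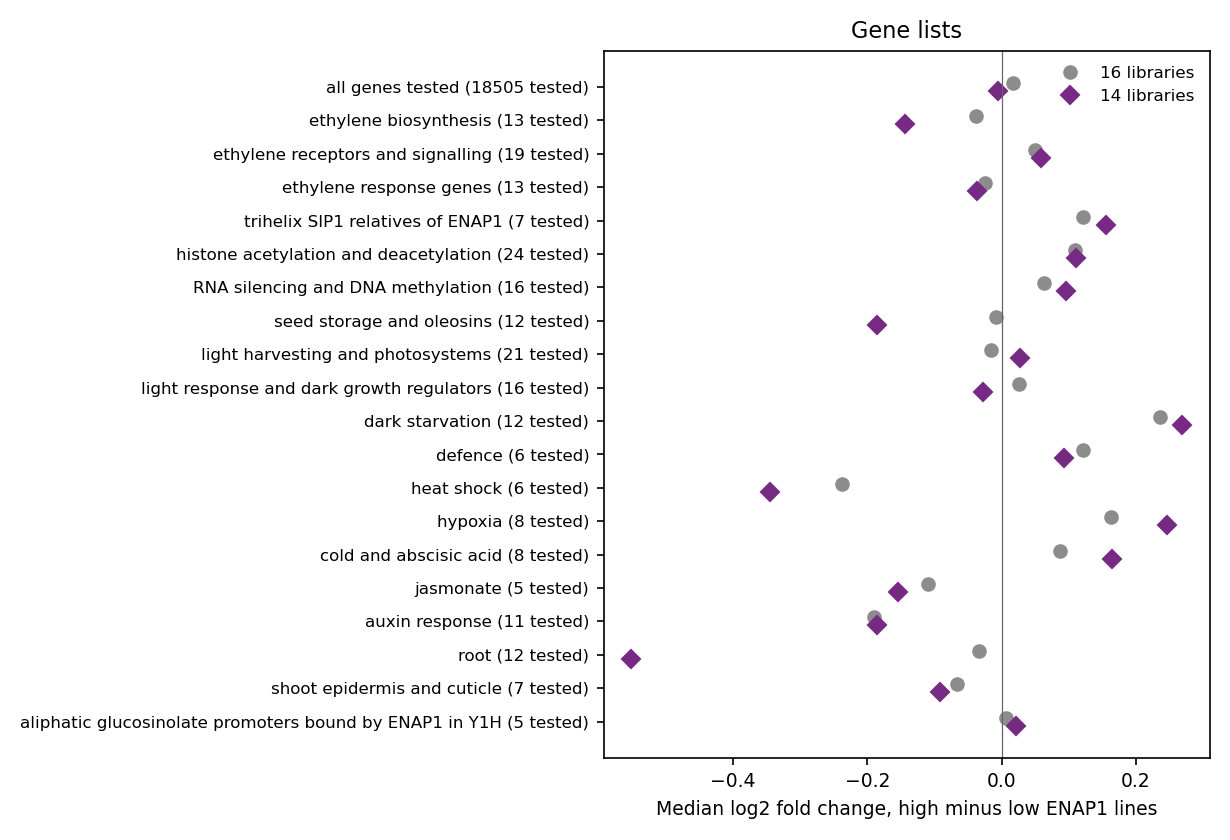
Median log2 fold change (high minus low lines) of each gene list over 16 libraries (grey circles) and 14 libraries (purple diamonds), with the number of genes tested over 16 libraries in brackets. The dark starvation list lies at 0.24 and 0.27 and the auxin response list at -0.19 in both. The root list lies at -0.03 over 16 libraries and at -0.55 over 14, where fewer of its genes were tested.

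The study chose ENAP1 for the metabolic promoters it bound in yeast one-hybrid assays, and the pathway genes were read for that reason. Of 56 tested genes of glycolysis and gluconeogenesis, 1 was called higher over 14 libraries (AT3G49160, a pyruvate kinase gene in the stretch of chromosome 3, at 0.61) and 0 lower. Of 52 TCA cycle genes, 1 (CSY2) was higher and 0 lower. Of 23 genes of the pentose phosphate pathway, G6PD4 was higher and EMB3119, a ribose-5-phosphate isomerase, was lower (-0.58, edgeR adjusted p = 0.0499), and of 15 genes of branched-chain amino acid biosynthesis, BCAT-1 and BCAT-2 were higher. The other 8 pathways had 0 calls. Over all tested genes, 0.578% were called higher and 0.589% lower over 14 libraries. The 18 genes of aliphatic glucosinolate synthesis whose promoters bound ENAP1 had 5 members that could be tested, with 0 calls and a median of 0.02. Over 16 libraries 0 genes of any pathway passed.

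The genes beside ENAP1 on chromosome 3 were not called. RLP35, a receptor-like protein gene, was at -0.13 and AT3G11120, a ribosomal L41 gene, at -0.22 over 16 libraries (edgeR adjusted p = 1.0 for both), and both changed sign in other settings. LBD21 and AT3G11110 were below the filter on low counts.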

How the data were processed

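Whole-seedling RNA-seq of 16 GR-ENAP1 libraries was analysed, with 48 libraries of other GR-TFs for levels only. According to the study's methods and the submitters' processing notes, the authors trimmed reads (Trim Galore 0.6.0, FastQC 0.11.7), aligned them to TAIR10 with STAR 2.7.0f and deposited raw counts per gene for each sequencing run. The annotation version is not given in the sources used here. The libraries are nonstranded, so reads of a gene and an overlapping antisense gene cannot be told apart. Runs of a library were summed (chi-square per gene 1.10 to 1.16 between runs, against 1.56 to 105.4 between replicates), and totals of 2059928 to 7571782 counts set the precision of low genes. CPM are counts per 1000000 of the library total and were used for levels and for the ranking of lines.

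Differences were tested with edgeR 4.0.16 in R 4.3.3 (quasi-likelihood F test, TMM factors 0.926 to 1.135, low counts filtered by filterByExpr) with treatment as a covariate, with Benjamini-Hochberg adjustment over all tested genes and a threshold of 0.05. Alternatives used DESeq2 1.42.0, limma 3.58.1 and MASS 7.3.60.0.1. Tables and figures used Python 3.11.15, pandas 2.3.3, numpy 2.4.6, scipy 1.17.1 and matplotlib 3.10.9. Scripts were tested on simulated data. Other settings, libraries and lines left out are given in the closing part, and the fit without the divergent libraries was added after the data were seen.

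Named genes were ENAP1 with 2 genes on each side, the 10 largest changes in each direction among genes called without overlap at 1 CPM or more (applied to 16 and 14 libraries), and up to 3 called members of each list, with ethylene genes and OLEO1. A withheld item is not reported here. Genes and lists said to be chosen after their values were seen fall outside this rule. The groups and lists were chosen with earlier results of these data known. Of the list entries, 3 were dropped because the annotation did not match the intended gene. Names and sequences came from the NCBI reference TAIR10.1, whose nuclear chromosomes are those of TAIR10, and 32548 of 32833 gene identifiers (99.13%) matched it.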

Additional observations from a re-analysis of the deposited data

Results flagged for a closer look

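Among 52 groups of 8 libraries, 17 held a library whose gap to its nearest neighbour was more than 0.526 of the group's range. In each of the 17 the library was line 1 mock replicate 1 or line 2 Dex replicate 1. This was largely set in advance, so a chance rate of about 1 in 20 does not apply. The median correlation had marked these libraries as divergent, and the genes below were picked with both left out. Line 1 mock replicate 1 stood apart in the high lines in its median correlation with the other libraries (0.7338), the summed CPM of the starvation list (3235) and the summed CPM of the root list (4207). Its levels of the lipase gene AT2G42990 (5.283 CPM), AT1G16630 (10.57 CPM) and the root myrosinase gene PYK10 (3709 CPM) were far above the other high-line libraries. It was far below them for AT5G47590 (0.2641 CPM), AT5G43450 (3.566 CPM), AT5G14470 (5.943 CPM), THA1 (34.87 CPM) and the amino acid transporter gene AT2G41190 (45.83 CPM). Line 2 Dex replicate 1 stood apart in the low lines in its median correlation (0.8617) and its starvation list (6176 CPM). It was far below the other low-line libraries for AT5G43450 (6.377 CPM), AT5G14470 (10.57 CPM), AT3G54363 (1.822 CPM) and THA1 (121.2 CPM).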

How the results depend on the processing

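The 4 lines are 4 insertions, so library-level tests cannot show that a difference follows ENAP1 level and not a line. The count of 1 gene over 16 libraries became 2 with library size alone, 34 in DESeq2, 239 in glm.nb, 117 without line 1, 2 in limma voom with line as a random block, 6260 with log2 CPM of ENAP1 as a continuous covariate, 216 without the divergent libraries, and 0 with counts summed per line, in mock libraries only and in Dex libraries only. The count stayed at 1 with line by treatment means and without line 5, line 4 or line 2. There the called gene was higher in the high lines, and so was not IAA6, which was lower in every setting. Leaving out 1 library gave 0 to 192 calls, the 192 without line 1 mock replicate 1.

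Over 14 libraries the 216 calls became 568 on line by treatment means, 749 in DESeq2, 3349 with ENAP1 as a continuous covariate, 2 in limma voom with line as a random block, 130 with likeness as a covariate, 30 when changes under 1 on the log2 scale were set aside, 22 without line 5, 2352 without line 4, 9 without line 2, and 0 with counts summed per line, in mock only and in Dex only. Leaving out 1 library gave 2 to 407 calls. With library size alone the split was 37 higher and 123 lower (23.12% higher, against 49.54% with TMM). All 216 genes kept their sign in each of these settings. They were called on the same libraries, so this was largely set in advance and is not a test of the calls.

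Whether replicate numbers mark shared plates or days is not stated. Among 28 pairs of line and treatment groups, replicates of the same number deviated together with a correlation over 0.1 in 15 (median 0.154, range -0.453 to 0.862). The check could not decide it, because library state also differed between replicates. With the replicate block there were 104 calls over 14 libraries, and 6 between lines 4 and 2.

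Line 5 against line 1 (15 calls) had 100 calls in DESeq2, 174 without the divergent libraries and 1 to 5883 when 1 library was left out, the 5883 without line 1 mock replicate 2. Line 4 against line 2 (2 calls) had 1 call with library size alone, 14 in DESeq2, 29 without the divergent libraries and 0 to 312 when 1 library was left out, the 312 without line 1 mock replicate 1. List members called (0) became 1 with library size alone, 3 without line 1, 12 without the divergent libraries and 0 to 9 when 1 library was left out. The Dex contrasts had 0 calls in every setting run, none of which had a term for line. The ENAP1 difference in Dex libraries ran from 129.5 to 240.2 CPM when 1 library was left out.

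RLP35 ran from -0.237 to 0.008 when 1 library was left out, positive without line 1 mock replicate 1, and turned positive without line 1 (0.021) and with ENAP1 as a continuous covariate (0.211). AT3G11120 ran from -0.891 to 0.042, positive without line 2 Dex replicate 1, and turned positive without line 5 (0.263) or line 2 (0.234), with counts summed per line (0.143) and in mock libraries only (0.587), and OLEO1 turned negative (-0.014) with the continuous covariate. Of 2410 values of named genes, 2154 kept direction and call, 229 gained a call, 18 lost one and 9 turned. The causes were not tested.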

Other observations

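Windows of 200000 bases that stood above the other lines of the same GR-TF by more than 0.1 on the log2 scale were also counted in the other GR-TF lines. There were 13 in line 8 of GR-CHA19 and 2 in line 12 of GR-LBD16, beside 12 in line 5 and 1 in line 2 of GR-ENAP1, and 0 in the other 12 lines of the series, among 495 windows. Divergent libraries were looked for and left aside only in GR-ENAP1. Counts of the other GR-TFs, those of 0 included, are thus not on equal terms with the GR-ENAP1 counts.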
